A study of Mus musculus with 10 samples.

Results

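Genes of the platelet lineage were followed over 5 tissues of aged mice: Vwf, Itga2b, Itgb3, Pf4, Ppbp, Gp9, Gp5 and Treml1. They were taken as every probe set of the array whose annotation names exactly 1 gene and names 1 of these 8. This gave 9 of 45101 probe sets, 2 of them for Itgb3 and 1 for each of the other 7 genes, out of 18193 genes with such a probe set. The mice were males of the outbred ICR stock, each kept alone in a cage under pathogen-free conditions. From 8 months of age 9 control mice ate the purified diet AIN-93 and 10 mice ate that diet with 1 to 2% LB81 yogurt, until tissues were taken at 28 months. Jejunum, ileum, distal colon, liver and spleen were each measured on 1 array per diet, 10 arrays in all, from RNA pooled in equal amounts over the mice of a group. A young group is not among the samples used here, so every value is one of old age, and the spread between mice is not in the data.

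Platelets are fragments of megakaryocytes, large polyploid cells that derive from blood stem cells and share a precursor with red cells. In adult mice the red pulp of the spleen, like the bone marrow, makes blood cells and holds megakaryocytes, and it also stores platelets. At a wound, von Willebrand factor (Vwf) bridges collagen and a receptor complex of glycoproteins to which Gp9 and Gp5 belong. The integrin formed by Itga2b and Itgb3 then binds fibrinogen and links platelets together, while granules release the chemokines Pf4 and Ppbp and bring Treml1 to the surface.

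Promoter windows of 300 bases, from 250 bases before to 50 bases after the gene start, were held for 6 of the 8 genes in the RefSeq table for build GRCm38.p6. All 6 genes had higher values in spleen than in the other tissues, so the windows were searched for words of factors that act in megakaryocytes. All words were read on both strands. A GATA word was spelled AGATAA or alternatively TGATAA, and with the other ending AGATAG or alternatively TGATAG. An ETS word was spelled AGGAAG or alternatively CGGAAG, the NF-E2 word was spelled TGAGTCA throughout, and a RUNX word was spelled TGTGGTT or alternatively TGCGGTT. The 4 windows below are shown because Pf4 and Ppbp are direct neighbours on chromosome 5 with the largest spleen differences, Gp5 holds the most words and Itga2b is a defining gene of the lineage. Capitals mark the GATA and ETS words. The windows lie at chr5:90768268-90768567 on the plus strand for Ppbp, chr5:90772185-90772484 on the plus strand for Pf4, chr16:30310732-30311031 on the minus strand for Gp5 and chr11:102469834-102470133 on the minus strand for Itga2b.
Ppbp: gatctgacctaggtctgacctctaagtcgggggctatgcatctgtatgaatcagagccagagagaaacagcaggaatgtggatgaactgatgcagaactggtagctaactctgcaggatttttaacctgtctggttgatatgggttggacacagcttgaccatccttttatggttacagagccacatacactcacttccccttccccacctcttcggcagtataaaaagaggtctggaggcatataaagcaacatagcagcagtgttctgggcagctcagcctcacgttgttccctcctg
Pf4: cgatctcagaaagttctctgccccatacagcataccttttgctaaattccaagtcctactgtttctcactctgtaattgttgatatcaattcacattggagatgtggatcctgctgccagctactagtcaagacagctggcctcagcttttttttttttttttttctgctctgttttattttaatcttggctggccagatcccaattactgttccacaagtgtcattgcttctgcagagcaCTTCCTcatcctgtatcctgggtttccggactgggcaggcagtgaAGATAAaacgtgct
Gp5: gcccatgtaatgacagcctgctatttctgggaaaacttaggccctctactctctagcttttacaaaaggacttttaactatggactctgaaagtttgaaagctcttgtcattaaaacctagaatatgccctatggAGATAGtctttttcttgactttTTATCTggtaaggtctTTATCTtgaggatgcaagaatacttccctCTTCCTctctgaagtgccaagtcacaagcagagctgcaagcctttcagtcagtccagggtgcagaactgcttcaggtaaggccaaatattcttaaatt
Itga2b: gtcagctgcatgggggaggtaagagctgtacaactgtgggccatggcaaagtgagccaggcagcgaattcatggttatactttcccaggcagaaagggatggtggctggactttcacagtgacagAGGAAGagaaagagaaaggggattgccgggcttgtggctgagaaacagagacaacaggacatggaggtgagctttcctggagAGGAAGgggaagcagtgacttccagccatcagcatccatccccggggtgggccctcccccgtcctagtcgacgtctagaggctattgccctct

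An ETS word stood in 4 of the 6 windows (Pf4, Gp5, Itga2b and Gp9), against 46.5% of all 32851 windows of that length. A GATA word stood in 2 of the 6, against 29.8%. In Gp5 the 3 GATA words began 115, 93 and 77 bases before the start, and in Pf4 the one GATA word began 36 bases after it. The ETS words of Itga2b began 125 and 43 bases before the start, that of Gp5 48, that of Gp9 16 and that of Pf4 9 bases before it. The NF-E2 word (5.2% of all windows) and the RUNX words (6.75%) were in none of the 6, and the windows of Ppbp and Treml1 held no word of the 4 kinds. These are matches of letters within this window and say nothing about binding.

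Of the tissue labels, those of spleen, liver and distal colon were checked with marker lists, and jejunum and ileum with genes of enterocytes, which both hold. All 7 tested B cell genes were at least 2-fold higher in spleen, and the mean log2 value of 7 hepatocyte genes was 13.52 and 13.55 in the yogurt and control liver against 4.75 to 6.92 elsewhere. The 7 distal colon genes had means of 11.42 and 11.14 there and at most 8.0 elsewhere. Only Hoxb13 and Hoxd13 of them stood apart, at 10.55 to 11.78 there and at most 4.47 elsewhere. Car1 stood at 11.57 and 11.39 in spleen, Aqp8 at 10.15 and 9.74 in liver, and Slc26a3 at 10.74 to 11.62 in jejunum and ileum. In ileum Muc2 had 13.10 and 13.12 beside 13.12 and 12.69 in distal colon, and Cdx2 9.92 and 10.19 beside 9.04 and 8.13. The 7 enterocyte genes had means of at least 11.78 in jejunum and at least 10.58 in ileum against at most 7.38 elsewhere. Fabp1 of that list was highest in liver, at 13.68 and 13.63, with 13.30 and 13.50 in jejunum and 8.69 in both ileum pools. Lactase (Lct) stood at 9.98 and 10.50 in jejunum and 4.42 and 5.22 in ileum, and no marker of ileum alone was used. For Gapdh, the array's 3' probe set minus its 5' probe set on the log2 scale, a difference that grows as RNA breaks down, was 1.01 to 1.29 in spleen, 0.86 to 0.98 in liver and 0.05 to 0.23 in gut, and for actin 1.01 to 1.09, 1.82 to 2.01 and 0.66 to 1.01. The Gapdh difference was thus highest in spleen and the actin difference in liver, and the part of this in the differences below was not tested.

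Compared with the other tissues, the spleen carried more transcript of these genes, by amounts that differed widely between them. Of the 9 probe sets, 8 passed the filter of lying above the array's median on at least 2 arrays, and each of the 8 was called higher in spleen than in the mean of the other 4 tissues. A call required a Benjamini-Hochberg adjusted p under 0.05 in limma, over all 26905 probe sets that passed, and a fitted difference of at least 1 on the log2 scale, which is 2-fold. Of all probe sets 13.0% were called higher. The fitted log2 differences ran from 1.45 for Vwf to 7.94 for Ppbp, with SEs of 0.08 to 0.12. Gp5 passed the filter through its spleen arrays alone, so it had to differ, and the count of 8 is therefore read beside that without a filter. In that fit, over 45037 probe sets, 8 of the 9 were called higher against 8.26% of all, the exception being the second Itgb3 probe set. The p-values measure how far the diet difference varied between tissues of the same pools, not the spread between mice. Since whole tissue was measured, more megakaryocytes or platelets and more RNA per cell cannot be told apart.

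**Figure D1:**
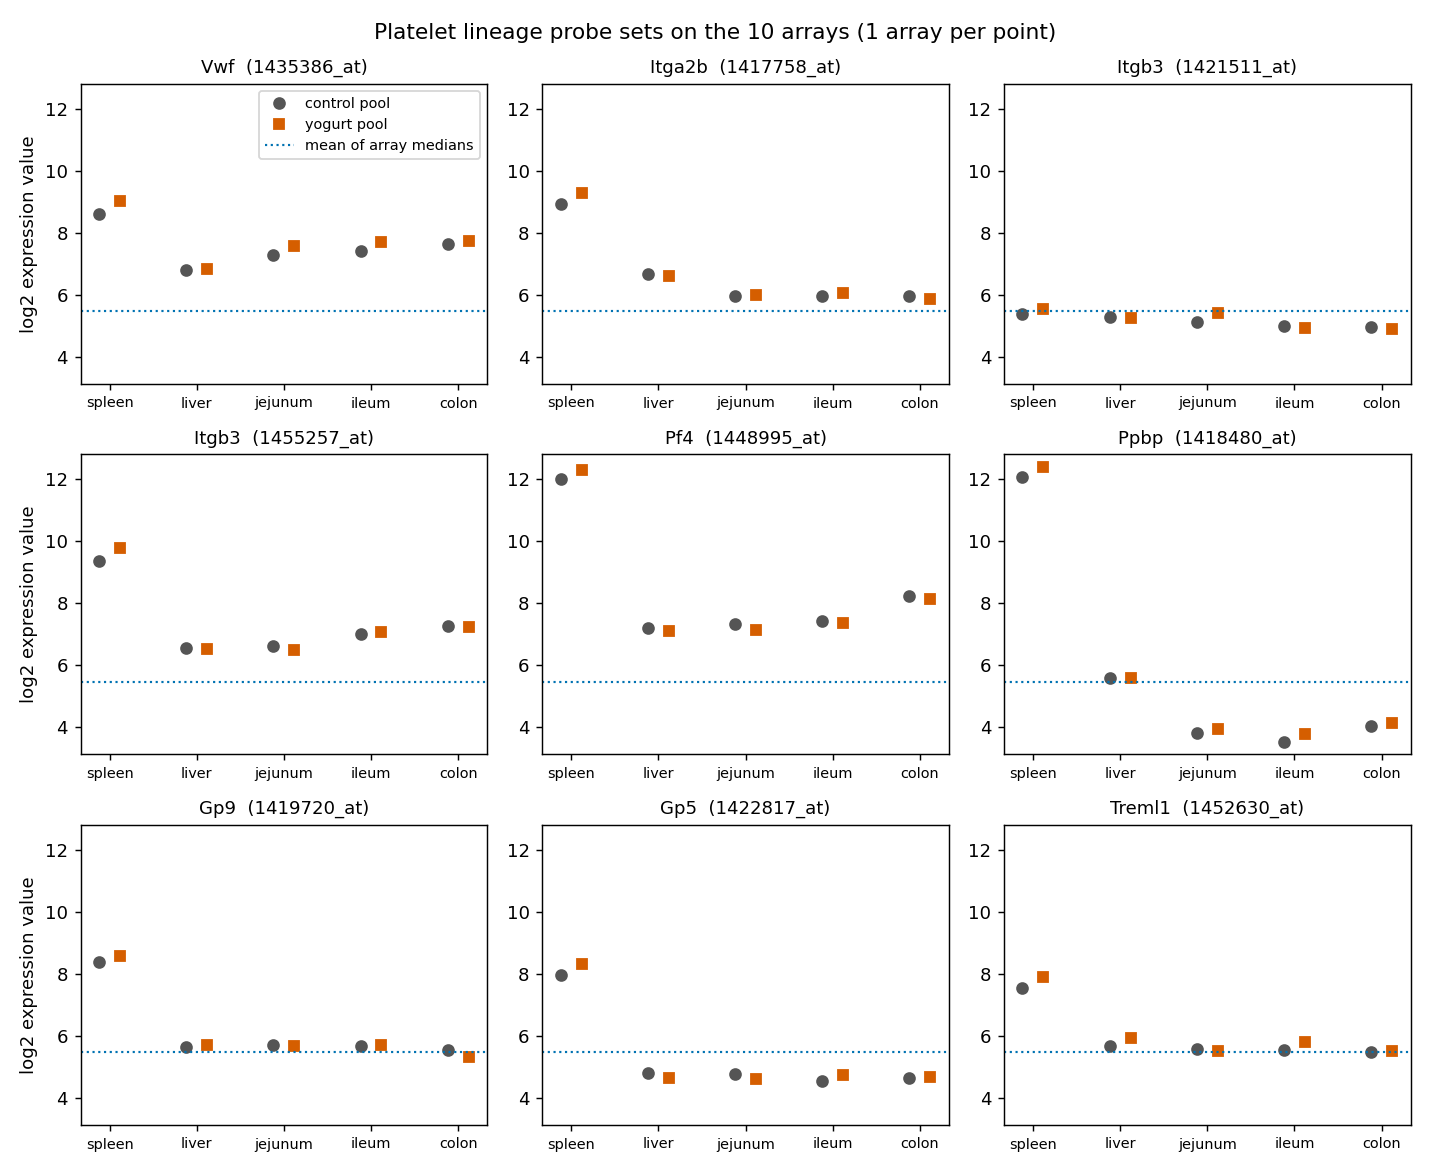
Log2 expression values of the 9 probe sets on each of the 10 arrays, by tissue, with control pools as circles and yogurt pools as squares. The dotted line is the mean of the array medians, and for every probe set but the dimmer one of Itgb3 (1421511_at) both spleen points lie above all 8 points of the other tissues.

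Vwf, the adhesive protein that megakaryocytes and endothelial cells both make, differed least. Its log2 values were 9.04 in the yogurt spleen and 8.60 in the control spleen. They were 7.75 and 7.63 in distal colon, 7.69 and 7.40 in ileum, 7.59 and 7.30 in jejunum, and 6.83 and 6.79 in liver, yogurt first. The spleen arrays lay above all the others, but the other tissues also lay well above the array medians of 5.42 to 5.49. The spleen was 2.73-fold higher than the mean of the other tissues (fitted log2 difference 1.45, SE 0.08, adjusted p = 5.56e-08), 4.04-fold higher than liver and 2.19-fold higher than distal colon. Of 17 tested genes of endothelial cells, 2 were called higher in spleen (Stab2 at 3.49 and Cldn5 at 1.67) and 2 lower (Lyve1 at -2.80 and Emcn at -1.69), where 12.2% of all tested genes were called higher and 19.3% lower. Their mean log2 value was 7.57 and 7.66 in the spleen pools and 7.26 to 7.75 on the other 8 arrays. Stab2 was nearly as high in liver, at 8.99 and 9.26 beside 9.33 and 9.41 in spleen. The part of endothelial cells in the values of Vwf was not tested.

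Gp9 and Gp5, the glycoproteins that sit beside the von Willebrand factor receptor chains on the platelet surface, were near the array medians outside spleen. Gp9 had log2 values of 8.59 and 8.39 in the yogurt and control spleen, and from 5.33 to 5.70 with a median of 5.68 on the other 8 arrays. Gp5 had 8.31 and 7.96 in spleen, and from 4.55 to 4.80 with a median of 4.65 elsewhere. No array of another tissue came within 2 log2 units of the spleen arrays for either gene, and Gp5 lay under the array median on all 8 of them. Gp9 was called higher in spleen with a log2 difference of 2.87 (SE 0.09, adjusted p = 7.36e-10). For Gp5 the fit gave 3.46 (SE 0.12, adjusted p = 8.39e-10). Because Gp5 was not above the median outside spleen, its fold is a lower bound: with values under an array's median raised to that median, the spleen was at least 6.36-fold higher.

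The integrin subunits Itga2b and Itgb3, which together form the fibrinogen receptor of platelets, were both higher in spleen. Itga2b, the subunit that is largely restricted to the megakaryocyte lineage, had log2 values of 9.29 in the yogurt spleen and 8.92 in the control spleen. Outside spleen it had 6.61 and 6.67 in liver and between 5.88 and 6.06 on the 6 gut arrays. The spleen was 7.83-fold higher than the mean of the other tissues (log2 difference 2.97, SE 0.10, adjusted p = 6.27e-10). Liver lay between spleen and gut, with no overlap on either side. Itgb3, which also pairs with Itgav in other cells, was measured by 2 probe sets that did not give the same picture.

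The brighter Itgb3 probe set, 1455257_at, had log2 values of 9.79 and 9.38 in the yogurt and control spleen. It had 7.25 and 7.28 in distal colon, 7.07 and 7.02 in ileum, 6.51 and 6.63 in jejunum, and 6.54 and 6.57 in liver. The spleen arrays stood apart, 6.63-fold above the mean of the other tissues (log2 difference 2.73, SE 0.10, adjusted p = 1.33e-09). The dimmer one, 1421511_at, had 5.53 and 5.37 in spleen and from 4.89 to 5.43 elsewhere, and lay above the array median on 1 of 10 arrays. In the fit without a filter its spleen difference was 0.35 (SE 0.10, adjusted p = 0.0112), short of 2-fold, and the control spleen lay below the yogurt jejunum. Itgav, the other partner of the beta subunit, was not called, with a log2 difference of -0.45 (SE 0.07), and its values were 9.70 and 9.99 in spleen.

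Pf4 and Ppbp, the chemokines stored in platelet granules, had the largest differences of the 8 genes. Pf4 had log2 values of 12.30 in the yogurt spleen and 12.02 in the control spleen. It had 8.15 and 8.23 in distal colon, 7.37 and 7.42 in ileum, 7.15 and 7.34 in jejunum, and 7.12 and 7.22 in liver. The spleen was 25.3-fold higher than the mean of the other tissues (log2 difference 4.66, SE 0.09, adjusted p = 1.26e-11). Ppbp had 12.41 and 12.08 in spleen, 5.60 and 5.59 in liver, and between 3.53 and 4.14 on the 6 gut arrays, which all lay under their medians. Its fitted log2 difference was 7.94 (SE 0.09, adjusted p = 6.63e-13), and the spleen was at least 107-fold higher once values under the median were raised to it. Pf4 was thus above the median in every tissue and Ppbp only in spleen and, narrowly, in liver.

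Treml1, a receptor of the granule membrane that reaches the surface of activated platelets, had log2 values of 7.89 and 7.55 in the yogurt and control spleen. On the other 8 arrays it had 5.48 to 5.94 with a median of 5.56, close to the array medians. The spleen arrays did not overlap with any other, and the difference was 2.09 (SE 0.10, adjusted p = 1.07e-08), or 4.25-fold.

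**Figure D2:**
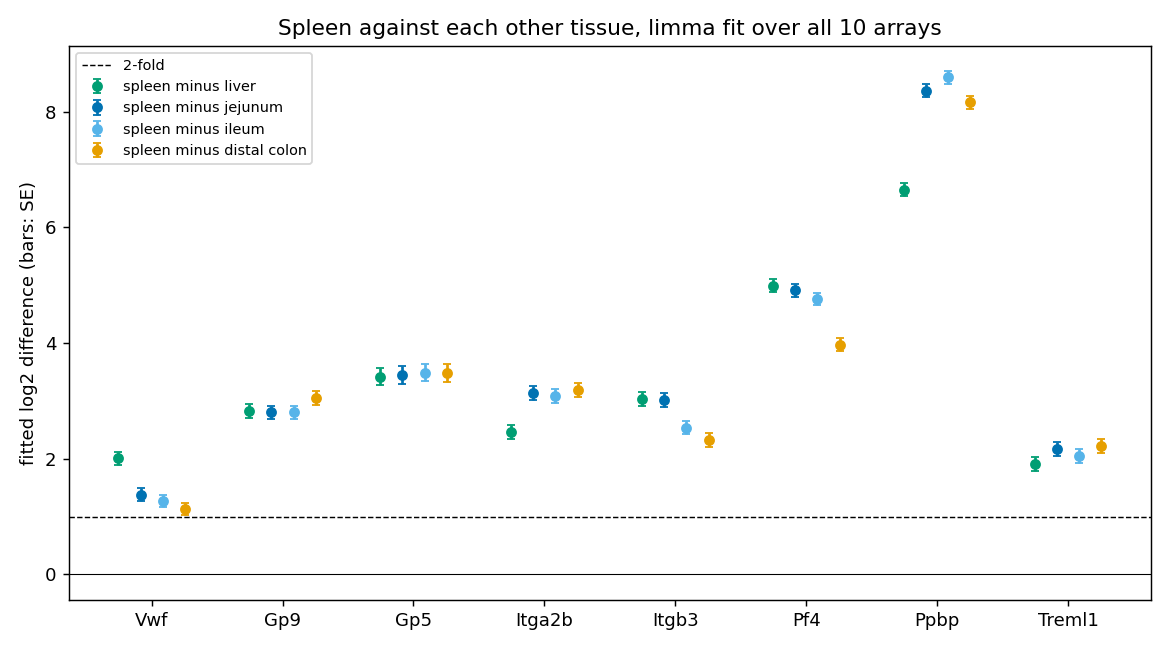
Fitted log2 difference of spleen minus liver, jejunum, ileum and distal colon for the 8 tested probe sets, with bars of 1 SE from limma over all 10 arrays. All 32 differences lie above the dashed line of 2-fold, from 1.13 for Vwf against distal colon to 8.59 for Ppbp against ileum.

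Against each tissue alone, the 8 tested probe sets were also called higher in spleen. The share of all probe sets called higher was 18.9% against liver, 13.4% against jejunum, 13.9% against ileum and 12.1% against distal colon. With a pseudocount of 64 added to the antilogged values, 7 were called against distal colon, since Vwf fell short of 2-fold there. Below the spleen the order of the tissues varied. Liver came second for Itga2b, Ppbp, Gp5 and Treml1, while distal colon came second and liver last for Vwf, Itgb3 and Pf4. For Gp9 the ileum and jejunum came next, with tissue means of 5.69 each.

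Most neighbours in these orders could not be separated. Of 24 neighbouring pairs without spleen, 5 had an adjusted p under 0.05. Itga2b was higher in liver than in ileum by 0.63 (SE 0.12, adjusted p = 8.61e-04), a contrast in which 71.1% of all probe sets had an adjusted p under 0.05. Ppbp was higher in liver than in distal colon by 1.51 (SE 0.11, adjusted p = 7.05e-07; 72.1% of all), the one such pair past 2-fold in a contrast with 10.4% of all called higher, and it was no longer called with the colon values raised to the median. Pf4 was higher in distal colon than in ileum by 0.79 (SE 0.11, adjusted p = 1.76e-04; 51.4% of all). Itgb3 was higher in ileum than in jejunum by 0.48 (SE 0.12, adjusted p = 0.0139; 32.7% of all), and Vwf in jejunum than in liver by 0.63 (SE 0.11, adjusted p = 3.22e-04; 70.2% of all). The other 19 pairs, all 3 of Gp9, of Gp5 and of Treml1 among them, had differences of 0.00 to 0.23 that did not pass, those of jejunum and distal colon included, where 56.3% of all did. The 15 tested genes of macrophages had mean log2 values of 9.32 to 9.46 in spleen, 8.98 to 9.08 in liver, 7.19 to 7.20 in distal colon, 6.91 to 6.99 in ileum and 6.74 to 6.92 in jejunum, and their part in the values of Pf4 and Itgb3 was not tested.

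Other genes of platelets and megakaryocytes were taken in 4 lists that hold none of the 8. Most were higher in spleen than in the mean of the other tissues. Each gene was represented by its brightest probe set. Of 50 tested genes 32 were called higher in spleen and 3 lower, against 12.2% higher and 19.3% lower among all 13626 genes tested, whose median difference was -0.05. Gata1, Nfe2, Tal1, Alox12 and F2rl3, 5 of the 32, lay above the median on spleen arrays alone, so they were tested only because they are high there. Without the filter, 32 of 53 genes were called higher and 3 lower, against 9.41% and 14.5% of all 18193 genes. Among the genes called higher than this mean, Gp1bb, F5, Clu and Zfpm1 were brighter in another tissue than in spleen. F5 had log2 values of 11.73 and 11.82 in liver beside 8.64 and 8.33 in spleen. Clu had 13.40 and 13.44 in liver beside 12.53 and 12.67 in spleen. Zfpm1 had 8.82 and 8.68 in jejunum beside 8.38 and 8.24 in spleen. The lists were chosen with earlier results of these data known, and several of their genes are active in other blood cells.

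Of regulators of the megakaryocyte lineage 8 of 11 were called higher and none lower, with or without the filter, and the median log2 difference was 2.96. Tal1 (5.11, SE 0.11) and Nfe2, transcription factors of megakaryocyte and red cell precursors, led the list. Nfe2 had log2 values of 9.74 and 9.43 in the yogurt and control spleen and at most 5.07 elsewhere. Gata1, needed in both lineages, was at 8.78 and 8.66 in spleen and at most 5.08 in the other tissues. Meis1 (-0.03) and Mafg (0.60) were the lowest and were not called.

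Receptors of the platelet surface were called higher in 6 of 10 cases and lower in 1, with a median of 1.15. Gp6, Itga2 and Cd226 did not pass the filter. Without it 6 of 13 were called higher and 1 lower, with a median of 0.8. Clec1b, the platelet receptor for podoplanin, had the largest difference (4.16, SE 0.09), with log2 values of 9.30 and 9.15 in spleen, 8.51 and 8.52 in liver and at most 4.20 in gut. Gp1bb, a chain of the same glycoprotein complex as Gp9 and Gp5, was called higher against the mean (2.44, SE 0.11). It did not share their pattern, since its log2 values were 9.79 and 10.02 in ileum beside 9.77 and 9.39 in spleen, and 4.64 and 4.77 in liver. The nucleotide receptor P2ry1 was lower in spleen (-1.23, SE 0.11), and the tetraspanin Cd9 was not called (-0.15).

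Proteins of the platelet skeleton and its signalling were called higher in 11 of 15 cases and lower in 1, with a median of 1.67. Tubb1, the tubulin of platelets, led with 5.25 (SE 0.11), at 10.18 and 9.86 in spleen and at most 5.53 elsewhere, followed by the kinase C substrate Plek (4.30, SE 0.07). Alox12, the platelet lipoxygenase, had a difference of 3.33 (SE 0.11). The light chain Myl9 was lower (-1.17, SE 0.11), on arrays where smooth muscle genes had mean log2 values of 7.06 and 7.22 in spleen and 9.50 to 11.09 in gut. Flna was not called (0.15).

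Of granule products 7 of 14 were called higher and 1 lower, with or without the filter, and the median was 0.84. Srgn, the proteoglycan that packs granule contents, had 2.35 (SE 0.04), and both F13a1, a clotting transglutaminase, and the matrix protein Thbs1 had 2.16 (SE 0.12 and 0.11). Pdgfa was lower (-1.25, SE 0.07), and the vesicle protein Vamp8 had -0.34 and was not called.

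Genes of plasma proteins that these receptors bind were highest in liver. Of 7 tested ligands and partners none was called higher in spleen and 5 were called lower, against 12.2% and 19.3% of all tested genes. Fibrinogen chains Fga, Fgb and Fgg had log2 values of 13.46 to 13.84 in both liver pools and at most 4.20 on any other array. Their lower calls are against a mean that holds liver, since they had 3.34 to 4.13 in spleen and 3.31 to 4.20 in gut. Fn1 and Vtn, adhesive ligands of beta integrins, were also highest in liver, at 12.64 and 12.59 and at 13.12 and 13.00. F8, the clotting factor carried by von Willebrand factor, was above the array median in liver alone, at 7.39 and 7.61, with 5.43 and 4.96 in spleen.

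**Figure D3:**
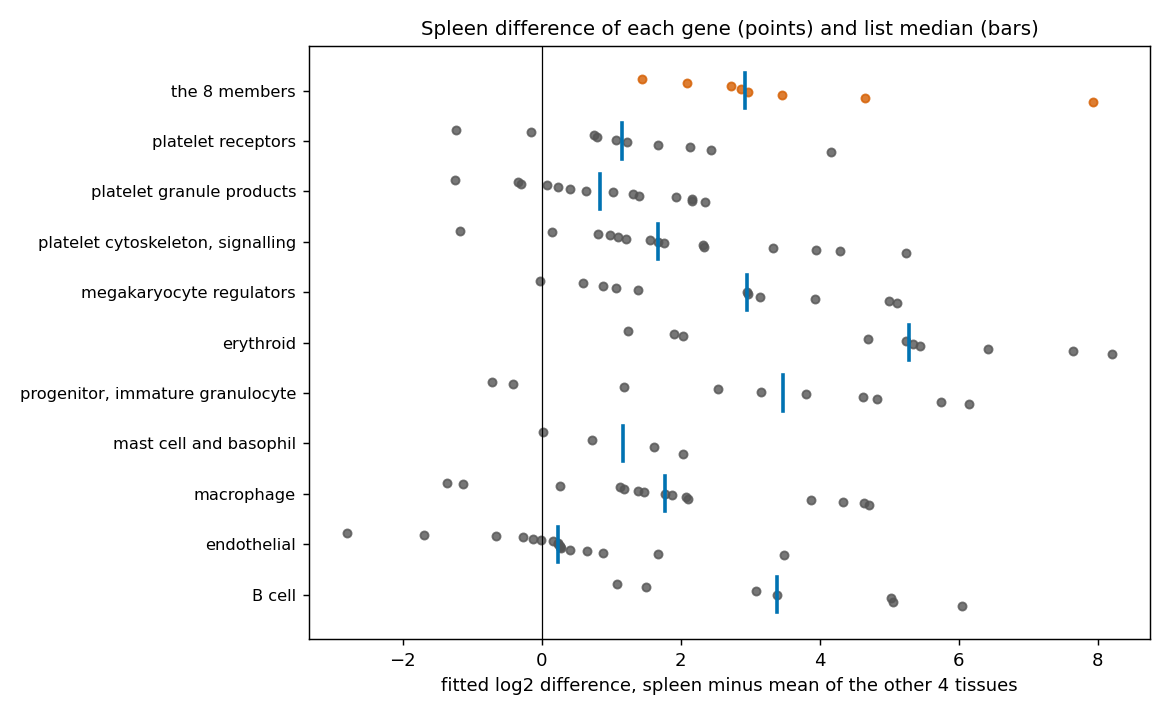
Fitted log2 difference of spleen minus the mean of the other 4 tissues for each tested gene (points, spread vertically only to separate them) and the median of each list (bars). The 8 platelet genes have a median of 2.92 and the erythroid genes one of 5.29, while endothelial genes centre near 0 at 0.24.

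Most tested genes of other blood cells were also called higher in spleen, beside 12.2% higher and 19.3% lower among all genes. All 10 tested erythroid genes were called higher (median 5.29), 4 of which (Slc4a1, Rhag, Epb42 and Trim10) were tested only because they are high in spleen. Without the filter 10 of 11 were called. The list was led by Hemgn, a nuclear protein of red cell precursors, at 8.21 and the anion exchanger Slc4a1 at 7.65, and its smallest differences were 1.24 for Sptb and 1.90 for Epor. Their mean log2 value was 10.17 and 10.00 in the spleen pools and 4.86 to 5.71 elsewhere. Of 10 genes of progenitors and immature granulocytes 8 were called higher (median 3.48), led by Camp (6.15) and Ngp (5.74), while the stem cell markers Kit (-0.41) and Cd34 (-0.72) were not called. Macrophage genes were called higher in 12 of 15 cases and lower in 2 (median 1.77), from Spic at 4.71 and Cd5l at 4.64 to Clec4f at -1.13 and Vsig4 at -1.36. Cd5l was not highest in spleen, with log2 values of 11.09 and 11.03 in liver beside 10.70 and 10.91 in spleen. B cell genes had a median of 3.39, between Ms4a1 at 6.05 and Pax5, itself tested through spleen alone, at 1.08. Of 4 tested genes of mast cells and basophils 2 were called higher (median 1.18), and without the filter 4 of 8. The part of these cells in the values of the 8 genes was not tested.

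Over the 10 arrays, the genes most like the platelet set included genes of red cells and their regulators. Likeness was the Pearson r between a gene and the mean of the 8 genes, each centred on its own mean, over 13618 other genes. In order the closest were Gm3715, a predicted gene (r = 0.9985), Kel, a blood group protein (0.9981), Tal1 (0.9977), Tmcc2 (0.9976), Rhag (0.9975), Crlf3 (0.9971), Slc4a1 (0.9971) and Gfi1b, a repressor needed for megakaryocytes and red cells (0.9970). An r of at least 0.99 was reached by 43 genes. It is a description of 10 points that share their pools. Since the 8 genes are all higher in spleen, any gene high in spleen alone has an r near 1. Gm3715, Kel, Tal1, Rhag and Slc4a1 lay under the array medians outside spleen, so they were compared only because they are high there.

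In the spleen, every one of the 9 probe sets was brighter in the yogurt pool, by small amounts. As deposited, the log2 ratios of yogurt over control were 0.44 for Vwf, 0.40 and 0.16 for the Itgb3 probe sets, 0.37 for Itga2b, 0.34 for Gp5 and for Treml1, 0.33 for Ppbp, 0.29 for Pf4 and 0.21 for Gp9. None reached 1.5-fold in spleen, where 1.95% of 23332 measured probe sets did in one direction or the other. Of all measured probe sets 39.7% had a ratio above 0 and 6.72% were at least 1.2-fold higher in the yogurt spleen, a size that 7 of the 9 reached and that was chosen after the values were seen. The median of the 9 was 0.34 with values under the array median raised to it, against -0.047 for all. These 9 ratios come from the same 2 arrays and are not independent, and with 1 array per diet there is no replicate check.

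In the other tissues the ratios lay around 0 and no probe set reached 1.5-fold. The share of measured probe sets that did was 0.882% in liver, 0.986% in jejunum, 0.610% in ileum and 1.07% in distal colon. With values raised to the median, the measured members had medians of 0.00 in liver, -0.04 in jejunum, 0.07 in ileum and -0.05 in distal colon. A ratio above 0 was found for 4 of 7 in liver (43.7% of all), 2 of 6 in jejunum (47.1%), 5 of 6 in ileum (40.5%) and 2 of 6 in distal colon (47.4%). Vwf had a ratio above 0 in all 5 tissues, 0.29 in jejunum and in ileum, 0.12 in distal colon and 0.05 in liver. Pf4, by contrast, had -0.20 in jejunum, -0.10 in liver, -0.08 in distal colon and -0.05 in ileum.

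**Figure D4:**
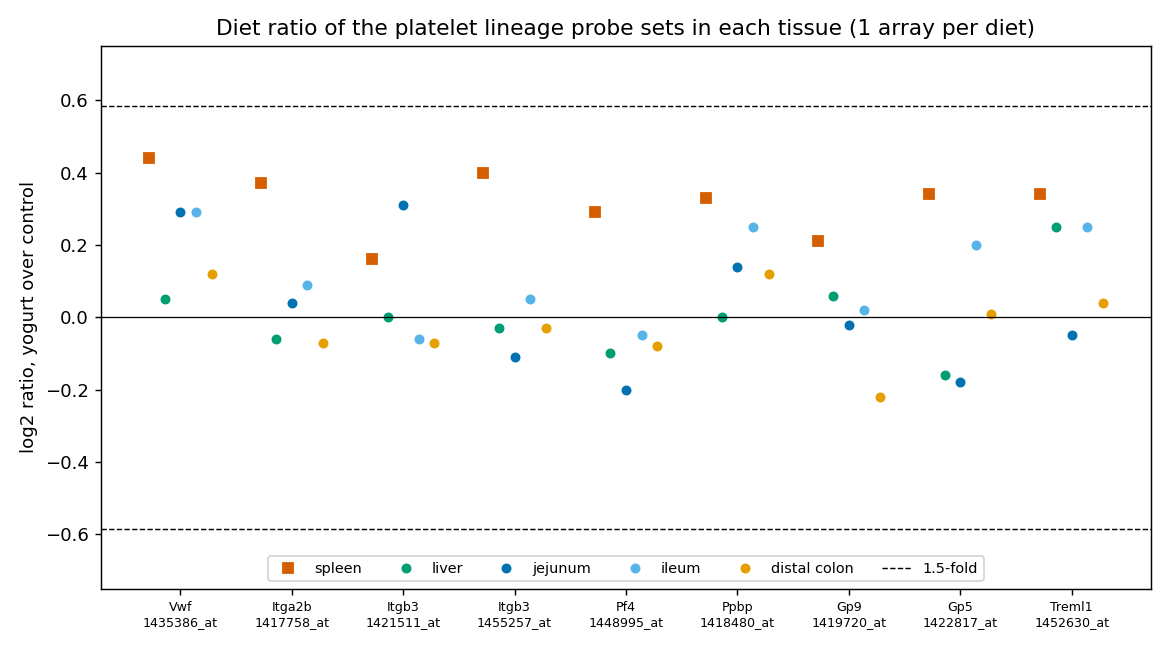
Log2 ratio of the yogurt over the control array in each of 5 tissues for the 9 probe sets, with squares for spleen and dashed lines at 1.5-fold. The spleen squares lie between 0.16 and 0.44, and no point reaches a dashed line.

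Neither fit of diet called any of the 8 tested probe sets. For a shift common to the 5 tissues, the smallest adjusted p in limma was 0.299, for Vwf (log2 difference 0.24, SE 0.07). An unadjusted p under 0.05 was found for 2 of 8, Vwf and Ppbp, against 10.2% of all. Ppbp lay under the median on all gut arrays, and its difference of 0.17 fell to 0.06 with values raised to the median. Of all probe sets 0.0297% were called higher and 0.00743% lower. For the spleen ratio minus the mean ratio of the other 4 tissues, a term added after the values were seen, the difference was above 0 for all 8. That sign restates the ratios given above and adds no support, and the share of all probe sets above 0 was not counted. The smallest adjusted p was 0.243, for Pf4 (difference 0.39, SE 0.11). Unadjusted p-values under 0.05 were found for 3 of 8, Pf4, Itgb3 and Itga2b, against 11.8% of all. Of all probe sets 0.0260% were called higher and 0.0335% lower for this term. Both tests rest on how ratios vary from tissue to tissue within the same 2 pools of mice, and there are no replicates of the diet.

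Ratios between the same 2 spleen arrays varied over the lists of other genes. For all measured genes the median ratio was -0.05. Of the 10 measured genes of progenitors and immature granulocytes all had a ratio above 0 and 8 were at least 1.2-fold higher in the yogurt spleen (median 1.27), among them Prtn3 at 1.90 and Ctsg at 1.75, granule proteases of young neutrophils, and Mpo at 1.68. Mast cell and basophil genes had a median of 0.90 over 4 genes, with Cma1 at 1.44. Erythroid genes were above 0 in 9 of 10 cases, with a median of 0.14. The 4 platelet and megakaryocyte lists had 39 of 50 genes above 0, against 38.3% of all genes, and 12 at least 1.2-fold higher, against 5.75%, with F13a1 at 0.74 the highest. Macrophage genes had 1 of 13 above 0 and a median of -0.21, endothelial genes 4 of 15 and -0.11, and B cell genes 3 of 7 and -0.02. The Gapdh difference of 3' minus 5' probe sets was 1.29 in the yogurt spleen and 1.01 in the control spleen. The part of these cells or of RNA quality in the ratios of the 8 genes was not tested.

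**Figure D5:**
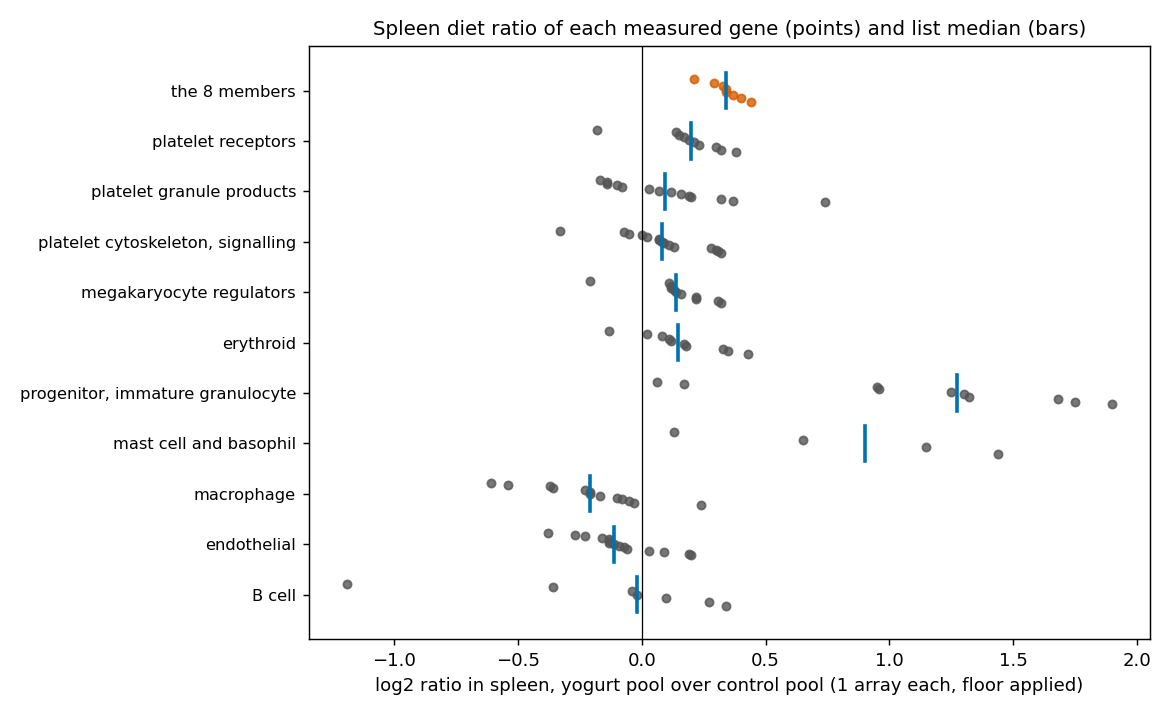
Log2 ratio of the yogurt over the control spleen array for each measured gene (points, spread vertically only to separate them) and the median of each list (bars), with values under the array median raised to it. The platelet genes lie between 0.21 and 0.44, and genes of progenitors and immature granulocytes reach 1.90.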

How the data were processed

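RNA was extracted from each mouse, pooled in equal amounts over the 10 yogurt-fed or 9 control mice for each tissue, turned into biotinylated cRNA and measured on Affymetrix mouse arrays, per the labels' protocols. The log2 expression values per probe set are those the authors deposited. MAS5 and affy are named in the submitters' processing notes; their versions and roles, and the scaling of the values, are not stated in what was used here. The values ran from 2.71 to 14.8 with array medians of 5.42 to 5.49, and nothing was rescaled. Array controls (64 probe sets) were left out. Probe sets were named by the platform annotation and the RefSeq table of GRCm38.p6: 34945 had 1 symbol, 932 had several and 9160 were unnamed here.

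The 26905 probe sets above the array median on at least 2 arrays entered a limma 3.58.1 fit in R 4.3.3, with terms for tissue and diet, moderated variances with a trend on mean level, and 4 residual degrees of freedom. For folds against dim tissues and for diet ratios, values under an array's median were raised to it, and a probe set was measured in a tissue if above it on either array. For the lists, the probe set with the highest mean stood for a gene. The fit was tested on simulated data of 26905 probe sets. Of 50 raised by 1.5 in spleen 49 were called, of 50 raised by 2 all 50, with 0 false calls among the unchanged ones. Apart from the spleen shifts the simulated tissues did not differ, and their noise was independent. Real tissues differ widely and share pools, so this does not measure the error rate in the data. The genes named are all members, the highest and lowest spleen differences of each list, the ligands and partners of the members and the 8 most similar genes. Tissue markers, Gata1, Alox12, the genes above the median in spleen alone and the leading diet ratios were named after their values were seen. So were the called list genes brighter in another tissue and the receptors that did not pass the filter. The members and lists were chosen with earlier results of these data known. Having 1 array per tissue and diet limits how precise any value is.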

Additional observations from a re-analysis of the deposited data

How the results depend on the processing

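The fit was repeated with the floor at the 35th, 50th or 65th percentile, a pseudocount of 64, no filter, quantile normalization, centring on the array median, no diet term, no trend, 1 probe set per gene, and without each array in turn, which leaves 1 array in a tissue that is then assumed to vary like the others. In each of these the 8 tested probe sets stayed called higher in spleen than in the mean of the other tissues, with log2 differences of 1.16 to 1.58 for Vwf, 4.23 to 4.86 for Pf4, 5.63 to 8.04 for Ppbp, 1.52 to 3.65 for Gp5, 1.10 to 2.19 for Treml1, 1.88 to 2.99 for Gp9, 2.19 to 3.15 for Itga2b and 2.20 to 2.95 for Itgb3. The largest adjusted p in limma among them was 2.87e-06, for Treml1. Over all probe sets 3496 were called higher and 4422 lower, against 1941 and 2726 with the pseudocount, 2112 and 2993 with the highest of the floors, and 1668 and 2628 with 1 probe set per gene. None of these alternatives called a member for diet over the 5 tissues, and the adjusted p of Vwf for diet ranged from 0.280 to 0.730. The median spleen diet ratio of the members was 0.34 to 0.43 over other floors, no floor, quantile normalization and centring. With a floor, quantile normalization or the mean of all probe sets of a gene, 29 to 33 genes of the 4 platelet and megakaryocyte lists were called higher. Without the filter it was 32 of 53, an alternative added after the data were seen. The diet term sets tissues of the same mouse pool side by side, so the fit without it is the unpaired one, and it also called all 8 higher in spleen.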
